A study of Mus musculus with 19 samples.

Results

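The genotype effect that Fabp7-KO mice showed both after sham handling and after electroshock was measured by RNA-seq in all 19 of the 19 libraries of the series. For each gene the log2 difference of KO from WT was averaged over the sham and the MEST mice, so that treatment was held constant, and the genes of interest were those called in this average that also had the same direction in both treatments. Of 16596 genes tested, 1215 met both conditions, which is 7.32% of the genes tested, and they are called common genes here. They comprised 716 genes higher in KO mice (4.31%) and 499 lower (3.01%). In 100 of them (0.603%) the sham and the MEST contrast each passed the test on its own in the same direction. This count of 100 fell to 46, 58 and 52 without WT MEST 1, 4 and 5 and to 44, 61 and 64 without KO MEST 2, 3 and 5, and it was 159 with DESeq2. The 499 lower genes became 329 without WT MEST 5 and 326 without KO MEST 2.

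All mice were males on a C57BL/6NJ background. Each library came from a tissue block that held hippocampus and cortex of 1 hemisphere, collected during the night (ZT20). Replicates were taken as separate mice, which the ages in the labels do not settle. The 5 WT sham mice (15.9 to 16.3 weeks old) and the 4 Fabp7-KO sham mice (17.3 to 17.9 weeks) were handled without a shock. The 5 WT MEST mice (17.4 to 18.0 weeks) and the 5 Fabp7-KO MEST mice (18.9 to 19.4 weeks) received 1 daily electroshock of rising current until the maximal electroshock seizure threshold (MEST), at which tissue was taken. How the knockout allele was made and how often it was backcrossed is not given in the sources used here.

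FABP7 is a small cytosolic protein that binds long-chain polyunsaturated fatty acids and carries them to membranes, lipid droplets and the nucleus. In the brain it is made by radial glia and neural stem cells during development and by astrocytes and oligodendrocyte precursors in the adult. Where an allele was made in another strain, a knockout mouse can also keep a stretch of DNA of that strain around the altered gene. Genes in such a stretch can differ from those of the WT strain whatever the knocked-out gene does.

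Reads in genes ranged from 27.6 to 51.7 M per library, with group medians of 29.9 M in WT sham, 39.5 M in KO sham, 32.6 M in WT MEST and 37.0 M in KO MEST, and the KO libraries were thus the deeper ones in both treatments. The first principal component (16.6% of the variance) placed the 5 WT sham mice between -31.0 and -20.5 and the other 14 mice between 1.5 and 14.2. The WT sham group therefore stood apart from the 3 other groups, and the sham contrast carries that distance while the MEST contrast does not. KO mice were also older than WT mice by 1.54 weeks among sham mice and by 1.42 weeks among MEST mice, so that age and genotype cannot be told apart for most genes. With age as a covariate the error of the genotype contrast was 3.58 times larger and limma called 1 common gene, Fabp7 itself. Levels are given as CPM, counts per M reads in genes of the same library, and differences as log2 of KO over WT after adding 0.1 CPM. Adjusted p-values come from limma with Benjamini-Hochberg adjustment over all genes tested, and a gene was called at an adjusted p under 0.05. Because the tissue was bulk, fewer cells of a type and less RNA per cell cannot be told apart.

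Across all genes the genotype effects in the treatments had little in common. The average passed the test in 1520 genes (9.16%), of which 305 had opposite signs in sham and MEST mice and were set aside. In sham mice 1658 genes were higher (9.99%) and 1356 lower (8.17%), and in MEST mice 748 were higher (4.51%) and 676 lower (4.07%). The 100 genes called in both treatments in the same direction were 3.32% of the sham calls and 7.02% of the MEST calls. A further 403 genes were called in both treatments in opposite directions, 209 of them higher in sham and lower in MEST. The genotype effects differed between treatments in 3075 genes (18.5%). Over all genes tested 45.7% had the same sign in both contrasts, and the log2 differences had a correlation of 0.002 across genes, which are not independent replicates.

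**Figure D1:**
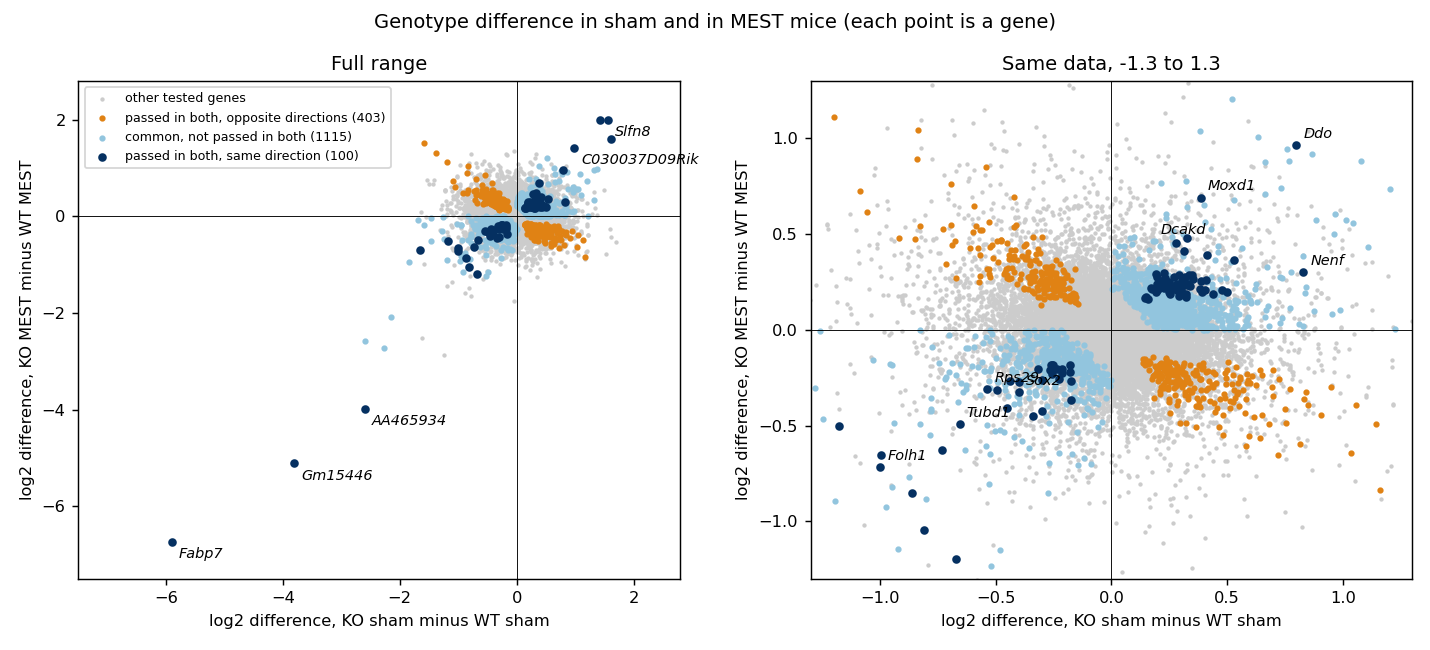
Log2 difference of KO from WT in sham mice (x axis) against that in MEST mice (y axis) for the genes tested, at full range (left) and between -1.3 and 1.3 (right), with the common genes in blue, those called in both treatments in dark blue and the 403 called in opposite directions in orange. The common genes lie at the lower left and upper right, with Fabp7, Gm15446 and AA465934 far from the rest at the lower left, while the cloud of all genes shows no slope (correlation 0.002).

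Most common genes changed modestly. Only 88 of the 1215 had an averaged log2 difference over 0.5 in size, 39 of them higher and 49 lower, and 16 differed by over 2-fold. The median size among common genes was 0.261 in sham mice and 0.168 in MEST mice, and 805 were larger in sham mice against 410 in MEST mice. The sham contrast alone called 654 of the common genes, the MEST contrast alone called 244, and 217 were called in neither and only in the average. In 216 common genes the size differed between treatments at an adjusted p under 0.05. Among the 100 genes called in both treatments the median size was 0.279, with a smallest value of 0.156, and the treatments differed in 7 of them. KO and WT libraries did not overlap in either treatment, in the same direction, in 86 genes, which is 0.518% of the genes tested, and all 86 were common genes. A model with 1 genotype and 1 treatment term, which leaves differences between the treatments in the error, called 376 higher and 224 lower genes.

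Fabp7 was the gene with the strongest decrease. It lies on chromosome 10 (GRCm38, chr10:57784881-57788450, plus strand). Its level was 13.7, 14.8, 13.5, 13.6 and 10.1 CPM in the WT sham libraries and 0.146, 0.108, 0.0517 and 0.198 CPM in the KO sham libraries. In MEST mice it was 13.9, 15.7, 13.6, 17.9 and 12.8 CPM in WT and 0, 0.082, 0.0872, 0.027 and 0.0193 CPM in KO libraries. Every KO library lay far below every WT library, which matched the genotype labels of all 19 libraries. The averaged log2 difference was -6.32 (SE 0.145, adjusted p = 1.4e-21), a value that depends on the 0.1 CPM added. The KO level was 0.959% of the WT level in sham mice, from 20 reads (95% Poisson interval 0.586 to 1.48%), and 0.292% in MEST mice, from 9 reads (0.133 to 0.554%), and these intervals cover counting error only. The log2 difference was -5.90 in sham and -6.73 in MEST mice, and this difference passed the test narrowly (adjusted p = 0.0448).

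Of the 13 genes of the FABP7 family, whose proteins share its barrel fold, 6 were expressed highly enough to test. Fabp5, the other main fatty acid binding protein of the brain, had an averaged log2 difference of 0.08 (SE 0.0658, adjusted p = 0.517). It was -0.08 in sham and 0.23 in MEST mice, neither called. Crabp1 and Crabp2, carriers of retinoic acid, had averaged values of 0.17 and 0.24 that did not pass the test. Crabp2 was -0.20 in sham mice, not called, and 0.68 in MEST mice (adjusted p = 0.0338). These values of Crabp2 differed from each other (adjusted p = 0.0336). Fabp3, the heart-type protein that is found in neurons, also moved in opposite directions. It was 104 to 132 CPM in WT sham and 67.4 to 93.3 CPM in KO sham mice, against 59.1 to 65.3 CPM in WT MEST and 66.2 to 78.7 CPM in KO MEST mice. Its KO libraries were thus all below WT in sham and all above WT in MEST mice. The log2 differences of -0.64 and 0.23 differed from each other (adjusted p = 1.01e-05), but that in MEST mice was not called (adjusted p = 0.0709). Its count is uncertain, since 21.7% of its sequence windows also occur in the pseudogene Fabp3-ps1.

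A pair of transcripts other than Fabp7 fell to a few percent of WT or less in KO MEST mice, and neither is next to Fabp7. Gm15446, annotated as protein coding (chr5:109923400-109943936), was 7.15 to 10.1 CPM in WT sham and 2.47 to 6.58 CPM in WT MEST libraries. In KO sham mice it was 2.77, 0.0216, 2.54 and 0.0495 CPM, and in KO MEST mice it was at most 0.0386 CPM. Among KO libraries 7 of 9 held at most 2 reads of it, while KO sham 2 and KO sham 4 held 95 and 98 reads. The averaged log2 difference was -4.46 (SE 0.536, adjusted p = 0.000126). The KO MEST level was 0.541% of WT MEST from 5 reads (95% Poisson interval 0.176 to 1.26%), and 22.1% of its windows are shared with Zfp932, a zinc finger gene. AA465934, an annotated processed transcript with no known function (chr11:83291699-83294632), was 11.5 to 13.1 CPM in WT sham and 15.1 to 17.8 CPM in WT MEST libraries. In KO sham mice it was 0.963, 1.01, 7.17 and 1.96 CPM, and in KO MEST mice it lay between 0.814 and 1.10 CPM. KO sham 4, at 7.17 CPM, stood between the WT libraries and the other 8 KO libraries. The averaged log2 difference was -3.30 (SE 0.261, adjusted p = 1.84e-06), and the KO MEST level was 5.74% of WT MEST (95% Poisson interval 4.96 to 6.60%).

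Among common genes with a mean of at least 2 CPM, the next largest decreases that separated the genotypes in both treatments were in Folh1, Xirp2 and Tubd1. Folh1 encodes the glutamate carboxypeptidase that cleaves the neuropeptide N-acetylaspartylglutamate outside astrocytes. It was 19.5, 19.3, 18.9, 31.0 and 20.7 CPM in WT sham and 11.6, 10.8, 10.3 and 10.1 CPM in KO sham libraries, and 23.7, 21.9, 24.7, 26.1 and 29.1 CPM in WT MEST and 14.7, 11.5, 19.4, 15.8 and 15.5 CPM in KO MEST libraries. No KO library reached a WT library of its treatment, and the averaged difference was -0.86 (SE 0.0918, adjusted p = 4.19e-06). Xirp2, an actin-binding repeat protein best known from muscle, fell by 0.82, from 5.77 to 2.83 CPM in sham and from 2.87 to 1.81 CPM in MEST mice. Tubd1, delta-tubulin of centrioles, was 8.75 to 10.6 CPM in WT sham against 5.19 to 6.62 CPM in KO sham, and 8.01 to 9.98 CPM in WT MEST against 5.45 to 6.68 CPM in KO MEST libraries. Its averaged difference was -0.57 (SE 0.0714, adjusted p = 1.53e-05), and -0.66 and -0.49 in the treatments.

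**Figure D2:**
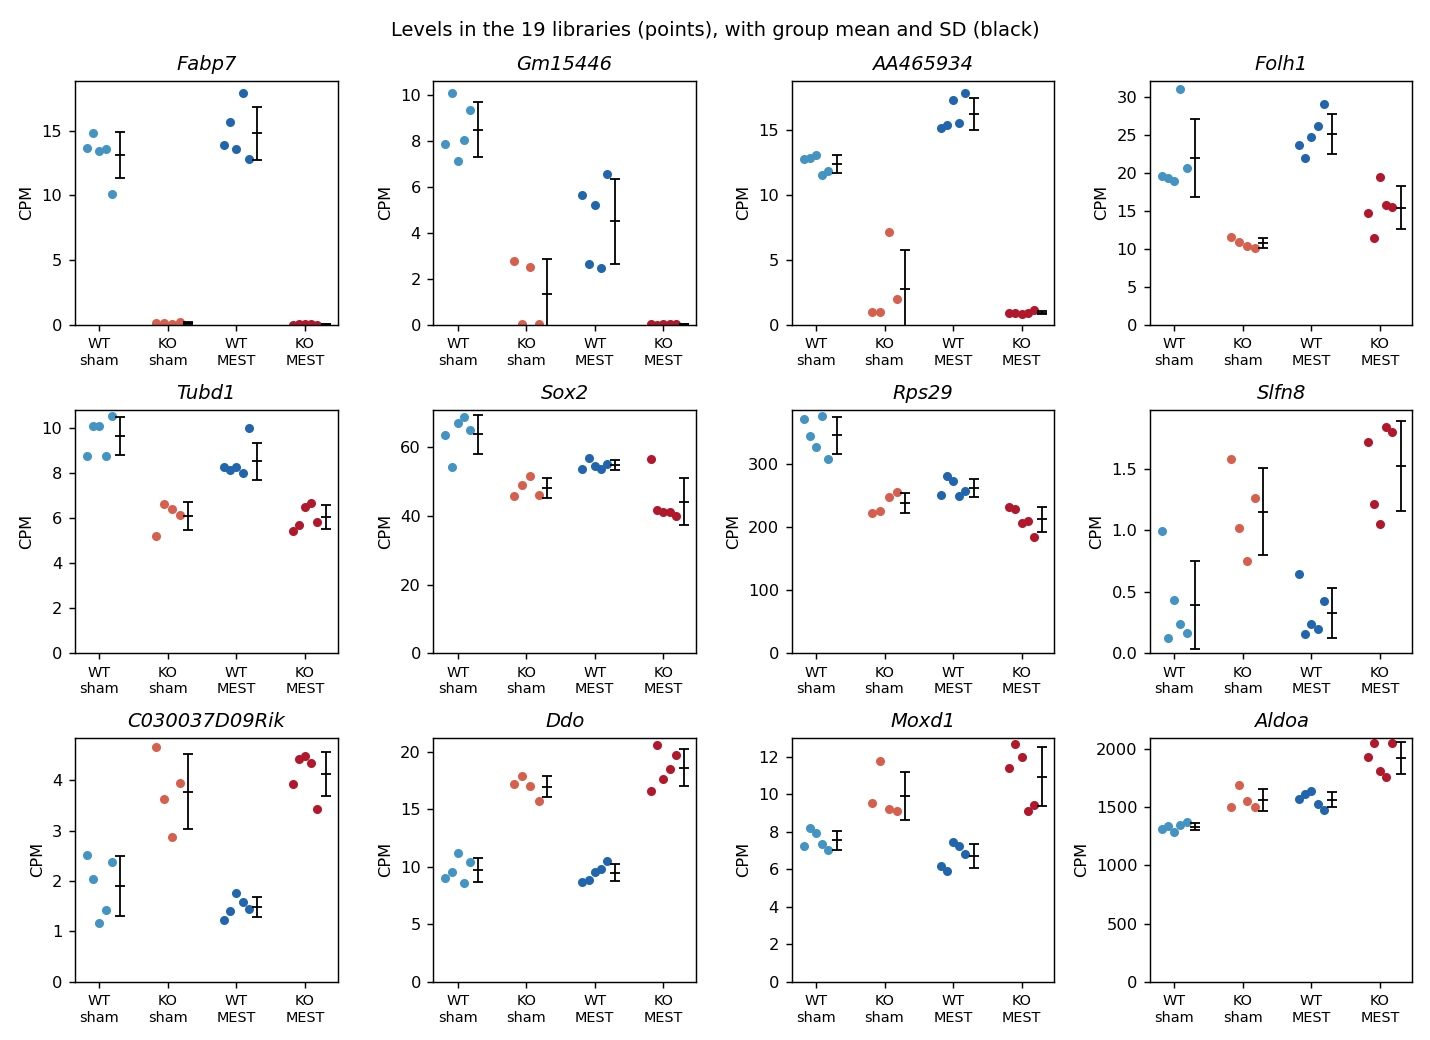
CPM of 12 genes in each of the 19 libraries (points, 1 per library), with the mean and SD of each group in black, and y axes that start at 0. Fabp7, Gm15446, AA465934, Folh1, Tubd1, Sox2 and Rps29 were lower and Slfn8, C030037D09Rik, Ddo, Moxd1 and Aldoa were higher in KO mice of both treatments, with KO sham 4 between the groups at AA465934 (7.17 CPM) and KO MEST 1 among the WT libraries at Sox2 (56.5 CPM).

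The other decreases on this list were between -0.57 and -0.29. Zfp36l2, which binds AU-rich messages and promotes their decay, fell by 0.43 (SE 0.0632, adjusted p = 0.000109), with almost the same value in sham (-0.45) and MEST (-0.41) mice. Rps29, a protein of the small ribosomal subunit, was 307 to 376 CPM in WT sham and 223 to 255 CPM in KO sham, and 248 to 280 CPM in WT MEST and 183 to 231 CPM in KO MEST libraries. It fell by 0.42 (SE 0.0474, adjusted p = 3.61e-06) and was the only ribosomal protein gene among the common ones that was lower in KO mice. Cuedc1 (-0.35), which has a ubiquitin-binding domain, Gtpbp8 (-0.32), a predicted GTPase, and S1pr5 (-0.29), the sphingosine-1-phosphate receptor of oligodendrocytes, completed the list. Mpc1, a subunit of the mitochondrial pyruvate carrier, belonged to it with a different profile. It was 75.9 to 97.7 CPM in WT sham and 40.9 to 53.2 CPM in KO sham, but 44.7 to 50.1 CPM in WT MEST and 39.2 to 44.6 CPM in KO MEST libraries. Its averaged value of -0.57 (adjusted p = 1.72e-07) thus rested on the WT sham level, with log2 differences of -0.95 and -0.18 that differed between treatments (adjusted p = 1.09e-05).

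Among common genes with a mean of at least 2 CPM, the largest increase that separated the genotypes in both treatments was in C030037D09Rik, an annotated long noncoding RNA (chr11:88718645-88728893). It was 1.16 to 2.51 CPM in WT sham and 2.87 to 4.67 CPM in KO sham, and 1.23 to 1.77 CPM in WT MEST and 3.44 to 4.48 CPM in KO MEST libraries, with an averaged difference of 1.2 (SE 0.132, adjusted p = 2.55e-06). Ddo encodes D-aspartate oxidase, which degrades the NMDA receptor agonist D-aspartate. It was 8.99, 9.56, 11.2, 8.54 and 10.4 CPM in WT sham and 17.2, 17.9, 17.0 and 15.7 CPM in KO sham libraries, and 8.67, 8.88, 9.59, 9.79 and 10.5 CPM in WT MEST and 16.6, 20.6, 17.6, 18.5 and 19.8 CPM in KO MEST libraries. Each KO library was well above each WT library. The WT means were 9.73 CPM in sham and 9.48 CPM in MEST mice, and the KO means were 16.9 and 18.6 CPM. The averaged difference of 0.88 (SE 0.0619, adjusted p = 7.74e-10) had the smallest p of all increases on this list. Moxd1, a copper monooxygenase related to dopamine beta-hydroxylase, was 7.03 to 8.19 CPM in WT sham and 9.09 to 11.8 CPM in KO sham, and 5.91 to 7.43 CPM in WT MEST and 9.13 to 12.7 CPM in KO MEST libraries (0.54, SE 0.0761, adjusted p = 6.84e-05).

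The other 9 increases on the list were between 0.29 and 0.38. Timm10 (0.38), a chaperone of the mitochondrial intermembrane space, and Dcakd (0.32), related to a kinase of coenzyme A synthesis, did not pass the test in 1 of the treatments, MEST for Timm10 and sham for Dcakd. Rpl17 (0.37) belonged to the large ribosomal subunit, and its difference was larger in sham (0.60) than in MEST mice (0.15, adjusted p of the difference = 0.00532). Selk (0.35), a selenoprotein of the endoplasmic reticulum, Gstz1 (0.32), an enzyme of tyrosine breakdown, Hsbp1 (0.31), which binds heat shock factor, Pmm1 (0.30), a phosphomannomutase, and Wdr5 (0.29), a scaffold of histone methyltransferase complexes, were each called in both treatments. Pmm1 was the most even of these, with 89.6 to 106 CPM in WT sham and 108 to 137 CPM in KO sham, 99.8 to 119 CPM in WT MEST and 122 to 138 CPM in KO MEST libraries. Fam219aos (0.31) is annotated antisense to Fam219a, shares 51.7% of its windows with that gene and is therefore uncertain. Likewise 42.5% of the windows of Rpl17 occur in other genes.

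The remaining genes among the 100 called in both treatments are described here from groups that were chosen after their values were seen, and the groups are descriptions only. Of the 100, 65 were higher and 35 lower in KO mice. Several of the higher ones build the cytoskeleton. Tubb5 and Tubb3, beta-tubulins, rose by 0.25 and 0.22, Cfl1, the actin-severing cofilin, by 0.26, Dbnl, an actin-binding adaptor, by 0.26, and Crmp1, a collapsin response mediator, by 0.16. Tubb5 was 370 to 382 CPM in WT sham and 427 to 490 CPM in KO sham, and 401 to 465 CPM in WT MEST and 480 to 544 CPM in KO MEST libraries, without overlap. Others act in metabolism or at the synapse. Aldoa, the glycolytic aldolase, rose by 0.26 (SE 0.0355, adjusted p = 4.09e-05), Acot7, a brain acyl-CoA thioesterase, by 0.29, Idh3g, a subunit of mitochondrial isocitrate dehydrogenase, by 0.21, Sult4a1, a neuronal sulfotransferase, by 0.25, Svop, a synaptic vesicle protein, by 0.34, and Aplp1, a relative of the amyloid precursor protein, by 0.30. Nenf, a secreted neurotrophic factor, rose by 0.57, with 0.83 in sham and 0.30 in MEST mice (adjusted p of the difference = 0.0046).

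Among the lower ones were several genes of membrane transport. Kcnj16, a subunit of an inward rectifier potassium channel, was 36.3 to 44.1 CPM in WT sham and 26.4 to 33.2 CPM in KO sham, and 30.5 to 39.2 CPM in WT MEST and 25.1 to 34.6 CPM in KO MEST libraries. The MEST groups overlapped through KO MEST 2, and the averaged difference was -0.40 (SE 0.0616, adjusted p = 0.000169). Slc12a2, the sodium-potassium-chloride cotransporter NKCC1, fell by 0.27 (SE 0.0383, adjusted p = 6.84e-05), with 125 to 134 CPM in WT sham and 104 to 123 CPM in KO sham, and 120 to 135 CPM in WT MEST and 91.8 to 106 CPM in KO MEST libraries. Abca8a, a lipid transporter, fell by 0.40, Heph, a copper-dependent ferroxidase, by 0.36 and Slc39a12, a zinc importer, by 0.22. Hmgn2, a nucleosome-binding protein, fell by 0.34. In Tmem181b-ps, Dynlt1b and Srp54a, with averaged differences of -1.17, -0.93 and -0.68, 27.0%, 82.0% and 72.1% of the windows occur in near-identical copies, and these counts are uncertain.

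The common genes were more frequent on chromosomes 10 and 11 than elsewhere. They made up 10.0% of the tested genes of chromosome 10 (79 of 788) and 10.3% of those of chromosome 11 (137 of 1331), against 4.67 to 8.84% on the other autosomes and 7.32% of all genes with a known position (1204 of 16451). Of the 100 genes called in both treatments (0.603% of all genes tested), 8 were among the 788 of chromosome 10 and 18 among the 1331 of chromosome 11. Chromosome 15 also held 8, among 645 tested genes, and chromosome 7 held 9 among 1261. By this count chromosome 10 thus did not stand out. The shares are descriptions with no test, and the stretches below, those around Slfn8 included, were chosen with values of these genes known.

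On chromosome 10 the share of tested genes that were common was higher on the side of Fabp7 toward the start of the chromosome, although the other side held more common genes in number. From the start of the chromosome to Fabp7 31 of 210 tested genes were common (14.8%), and 8 of these were over 0.5 in size, which is 3.81% of the tested genes of the stretch against 0.505% of all placed genes. Beyond Fabp7 it was 47 of 577 (8.15%). Within 10 Mb of Fabp7 on either side 10 of 99 were common (10.1%), 3 higher and 7 lower, and apart from Fabp7 each was under 0.5 in size. Ranbp2 (-0.15), a nucleoporin, Gcc2 (-0.15), a golgin, Jmjd1c (-0.16), a histone demethylase, Slc29a3 (-0.18), a nucleoside transporter, Mcm9 (-0.26), a helicase of DNA repair, and Mypn (-0.30), a sarcomeric protein, were lower. Lrrtm3 (0.16), a synaptic adhesion protein, Lrrc20 (0.17) and Anapc16 (0.18), a subunit of the anaphase-promoting complex, were higher. The larger values were farther away. Ddo and Moxd1 belong to this arm, and Ddo is followed by Mettl24, a predicted methyltransferase whose start (40683282) is close to the end of Ddo (40681847). Mettl24 fell by 0.86 (SE 0.181, adjusted p = 0.00388) while Ddo rose. Adgrg6, an adhesion receptor, fell by 0.93 (SE 0.116, adjusted p = 1.47e-05), and Txlnb, beta-taxilin, by 0.84 (SE 0.114, adjusted p = 4.09e-05). These 3 genes were chosen after their values were seen.

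On chromosome 11 the stretches were cut at the start of Slfn8, a member of the Schlafen family of immune and growth regulators (chr11:83002158-83020810). The cut is not an edge of the pattern, since the common genes Fndc8 and Rffl lay shortly before it. In the 10 Mb beyond Slfn8 23 of 95 tested genes were common (24.2%), 12 higher and 11 lower, 9 were called in both treatments and 9 were over 0.5 in size (9.47%). The size differed between treatments in 2 of the 23, beside 216 of the 1204 common genes with a known position. Before Slfn8 68 of 739 were common (9.20%), and more than 10 Mb beyond it 46 of 497 (9.26%). Slfn8 itself was 0.992, 0.125, 0.435, 0.237 and 0.167 CPM in WT sham and 1.57, 1.01, 0.75 and 1.26 CPM in KO sham libraries, and 0.153 to 0.644 CPM in WT MEST and 1.05 to 1.84 CPM in KO MEST libraries. The sham groups overlapped through WT sham 1 and the MEST groups did not, and the averaged difference was 1.78 (SE 0.258, adjusted p = 0.000111). With age as a covariate it was -0.068 and was not called. Of the 9 Schlafen genes 6 were tested, and Slfn2 (0.41, adjusted p = 0.0477) was the other common one.

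**Figure D3:**
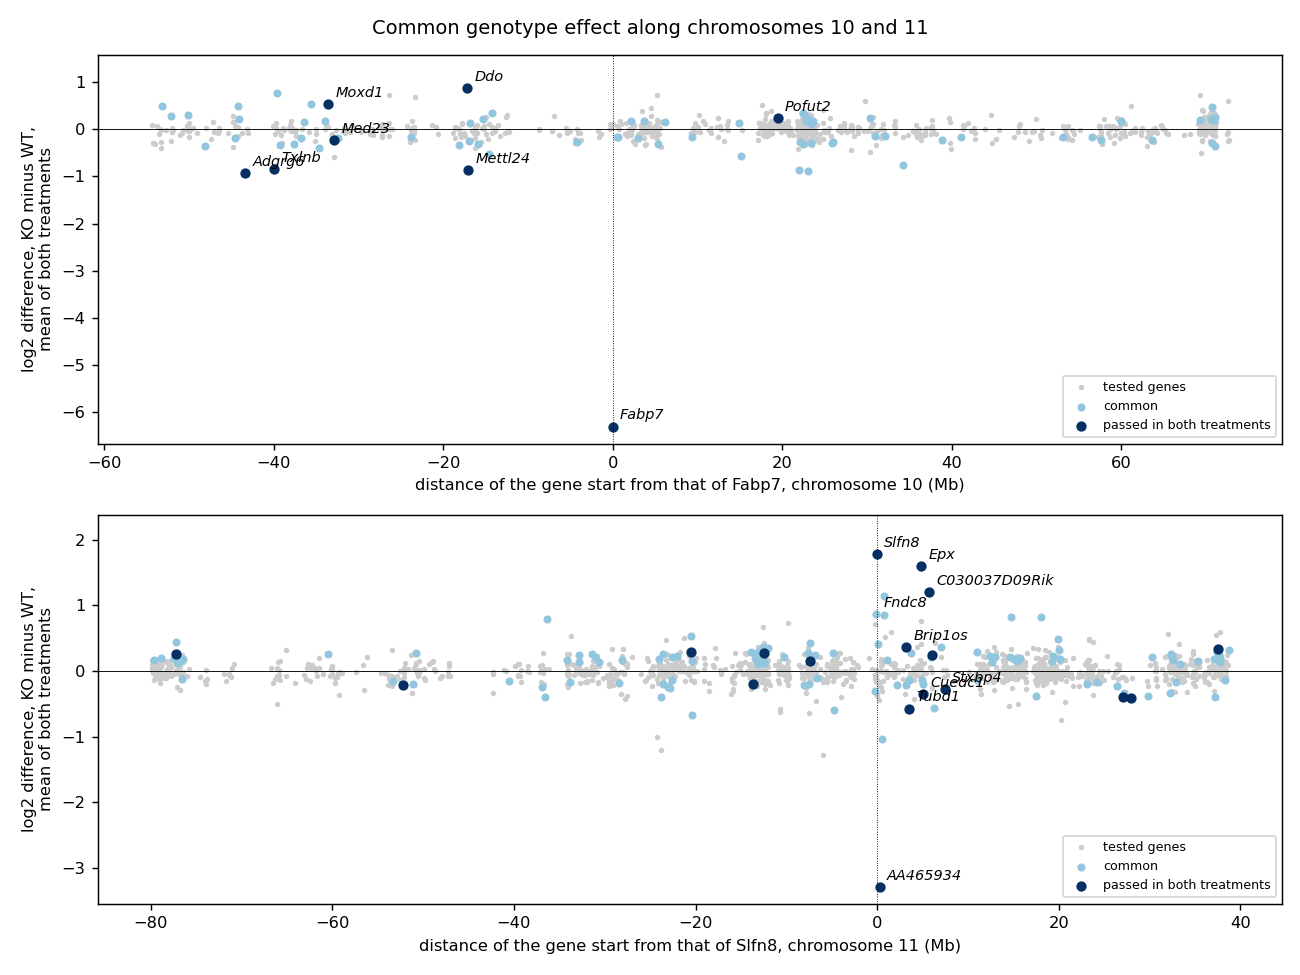
Averaged log2 difference of KO from WT (y axis) of the tested genes of chromosome 10 against their distance in Mb from Fabp7 and of chromosome 11 against their distance from Slfn8, with common genes in light blue and those called in both treatments in dark blue. Common genes over 0.5 in size were 8 of 210 tested genes between the start of chromosome 10 and Fabp7 and 9 of 95 in the 10 Mb beyond Slfn8, against 0.505% of all placed genes.

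Within 1 Mb of Slfn8 8 of 36 tested genes were common (22.2%), and 6 of these were over 0.5 in size. Besides Slfn8, Slfn2 and AA465934 they were Fndc8 (0.86), Wfdc17 (1.15) and Wfdc18 (0.85), which were higher, and Rffl (-0.31), a ubiquitin ligase, and E230016K23Rik (-1.03), which were lower. Wfdc17, Wfdc18 and E230016K23Rik were under 1 CPM in every group mean. Of the windows of Rffl 35.4% are shared with Lig3, so its count is uncertain. Farther along the stretch were Tubd1, Cuedc1 and C030037D09Rik, and, chosen after their values were seen, Dgke (0.24), a diacylglycerol kinase, Stxbp4 (-0.28), a syntaxin-binding protein, Brip1os (0.37), antisense to a neighboring gene, and Epx. Epx, the eosinophil peroxidase, had 0, 0, 0, 0 and 5 reads in WT sham and 3, 15, 11 and 21 reads in KO sham libraries, and 2, 0, 0, 0 and 0 reads in WT MEST and 7, 19, 7, 6 and 14 reads in KO MEST libraries. It was present in all 9 KO libraries and in 2 of 10 WT libraries, and WT sham 5 held more reads than KO sham 2.

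KO sham 4 differed from the other KO sham libraries in this stretch. For each common gene the KO library least shifted from the WT mean of its treatment in the direction of the averaged difference was found. A library on the other side of the WT mean counted as less shifted still. In 14 of the 23 common genes of the stretch (60.9%) this was KO sham 4, against 5, 3 and 1 genes for KO sham 2, KO sham 3 and KO sham 5. Elsewhere on chromosome 11 the share of KO sham 4 was 29.4% of the 68 common genes before Slfn8 and 21.7% of the 46 that lay beyond the stretch. There KO sham 5 was least shifted most often, in 38.2% and 39.1%. Among KO MEST libraries KO MEST 4 was least shifted in 48.5% and 39.1% there, and in 26.1% in the stretch. A large share for 1 library was thus not limited to KO sham 4 or to this stretch. Without KO sham 4 the averaged differences of AA465934 and Slfn8 were -3.60 and 1.86, and 645 higher and 467 lower common genes were found. DNA linked to an allele and the loss of FABP7 cannot be told apart for genes of chromosome 10, and whether KO and WT mice differ in sequence on chromosome 11 was not tested.

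Of the lists for cells that make FABP7, that of astrocytes held common genes in both directions. Those of stem cell and oligodendrocyte genes held 1 common gene each, too few to give either list a direction. The counts are to be read beside 4.31% of all genes tested that were common and higher and 3.01% that were common and lower. Of 24 astrocyte markers 2 were common and higher, Clu (0.14), a lipid-binding chaperone, and Aldh1l1 (0.16), a folate enzyme, and 2 were common and lower, Sox9 (-0.38) and Id4 (-0.23), both transcriptional regulators of the glial lineage. The median of the 24 was -0.0746 against -0.00744 for all genes tested. Sox9 was lower mainly in sham mice, with -0.55 against -0.21 in MEST mice (adjusted p of the difference = 0.0466). Of 22 genes of radial glia, neural stem cells and Notch signaling 1 was common, Sox2, the stem cell transcription factor. Sox2 was 63.6, 54.3, 67.0, 68.7 and 65.0 CPM in WT sham and 45.7, 49.1, 51.8 and 46.0 CPM in KO sham libraries, and 53.7 to 56.9 CPM in WT MEST libraries and 56.5, 41.8, 41.2, 41.3 and 40.0 CPM in KO MEST libraries. The sham groups did not overlap, and in MEST mice only KO MEST 1 lay among the WT libraries. Sox2 fell by 0.36 (SE 0.0561, adjusted p = 0.000205), with -0.40 in sham and -0.32 in MEST mice. Among 17 genes of oligodendrocytes and their precursors 1 was common and lower, Ermn (-0.20), a cytoskeletal protein of myelinating cells.

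Of 17 microglia markers 2 were common and higher and 4 common and lower, beside 4.31% and 3.01% of all genes tested. C1qa (0.29) and C1qb (0.32) encode chains of complement C1q. C1qb was 29.0 to 38.6 CPM in WT sham and 38.0 to 45.5 CPM in KO sham, and 37.5 to 46.0 CPM in WT MEST and 43.0 to 56.5 CPM in KO MEST libraries, with a slight overlap in both treatments and an adjusted p of 0.00169. The lower ones were P2ry12 (-0.21), a purine receptor named only to complete the count, Siglech (-0.28), a sialic acid binding receptor, Gpr34 (-0.28), a lysophospholipid receptor, and Itgam (-0.24), the integrin CD11b, of which 71.0% of the windows are shared with the gene model Gm49368. The summed level of the 17 markers was 570 to 694 CPM in WT sham, 576 to 652 in KO sham, 576 to 656 in WT MEST and 572 to 662 in KO MEST libraries, with full overlap.

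Among neuronal genes 3 of 16 inhibitory neuron markers were common and higher, beside 4.31% of all genes tested, and each of the 3 encodes a neuropeptide. Cck, cholecystokinin, rose by 0.53 (adjusted p = 3.92e-05), with group means of 93.0 CPM in WT sham, 166 in KO sham, 170 in WT MEST and 200 in KO MEST mice, and the effect was larger in sham mice (adjusted p of the difference = 0.00238). Npy, neuropeptide Y, rose by 0.42 (adjusted p = 0.000806), from 46.2 to 54.4 CPM in sham and from 51.6 to 79.3 CPM in MEST mice. Vip, vasoactive intestinal peptide, had an averaged value of 0.28 (adjusted p = 0.0342) that came from sham mice (0.54), with 0.02 in MEST mice. Of 16 excitatory neuron markers Slc17a7 (0.17), the vesicular glutamate transporter, was common and higher, and Camk2a (-0.13), a calcium-dependent kinase, and Rasgrf2 (-0.14), an exchange factor for Ras, were common and lower. Of 24 activity-dependent genes only Nr4a3 (-0.30), a nuclear receptor, was common, beside 7.32% of all genes tested.

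Among vascular and border cells, Slco1a4 (-0.18), an organic anion transporter, and Rgs5 (-0.26), a pericyte gene, were the 2 common genes of 19 endothelial and mural markers. Igf2 (-0.24) was the common gene of 15 fibroblast markers, with 75.7% of its windows shared, and Enpp2 (-0.26), the lysophospholipase autotaxin, was that of 14 choroid plexus and ependymal markers. These counts are to be read beside the 7.32% of all genes tested that were common, and the last 2 lists were near that share. The summed choroid plexus and ependymal level was 1820 to 2720 CPM in WT sham, 2040 to 2880 in KO sham, 1930 to 2970 in WT MEST and 1730 to 2240 in KO MEST libraries. These ranges overlapped in both treatments, and the part of such cells in the other results was not tested.

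FABP7 acts in lipid metabolism, and the lists of that field held common genes at shares near that of all genes tested (7.32%). Of 40 genes of fatty acid uptake, activation, synthesis and oxidation Slc27a4 (0.16), a fatty acid transporter, and Acaca (0.17), acetyl-CoA carboxylase, were common and higher, and Fads6 (-0.33), of the desaturase family, was common and lower. Of the windows of Acaca 42.8% are shared with Gm5182, so its count is uncertain. The median of the 40 was -0.0258. Of 22 genes of cholesterol synthesis 2 were common and higher, Fdps (0.21), farnesyl diphosphate synthase, and Dhcr7 (0.26), the reductase of the last step, with a median of 0.1 over the 22. Dhcr7 was 22.1 to 27.4 CPM in WT sham and 28.5 to 30.4 CPM in KO sham, without overlap, and 27.4 to 33.6 CPM in WT MEST and 32.1 to 37.7 CPM in KO MEST libraries, with overlap, and it passed the test in both treatments (averaged adjusted p = 0.00174). Of 13 nuclear lipid receptors and their partners Srebf1 (-0.26), the transcription factor of fatty acid synthesis, was common. Of 20 tested lipid droplet genes Bscl2 (0.14), seipin, was common.

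**Figure D4:**
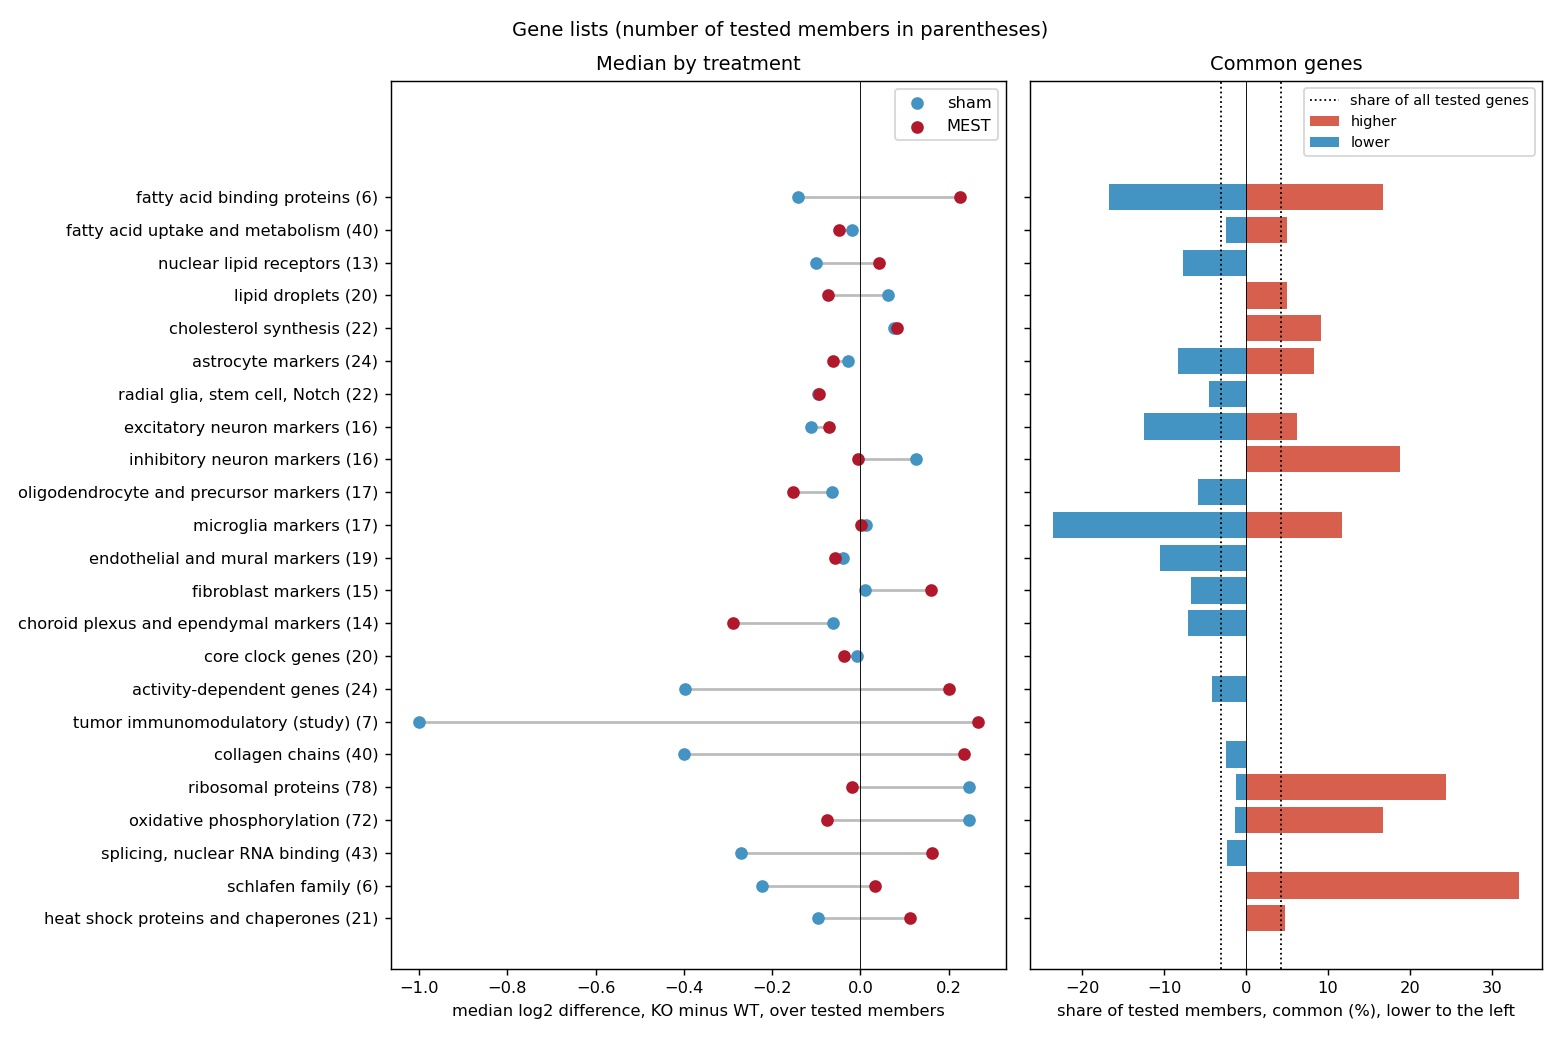
Left, median log2 difference of KO from WT in sham and in MEST mice over the tested members of each gene list; right, the percentage of tested members that were common and higher or common and lower, with dotted lines at the shares of all genes tested (4.31% and 3.01%). The medians of ribosomal protein and oxidative phosphorylation genes were 0.247 in sham mice and slightly below 0 in MEST mice.

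Ribosomal protein and oxidative phosphorylation genes gave the largest counts of common genes among the lists, and those counts came from sham mice. Of 78 ribosomal protein genes 19 were common and higher, beside 4.31% of all genes tested. In sham mice 43 of the 78 were higher, beside 9.99% of all genes tested. In MEST mice only 3 were higher and 10 were lower, beside 4.51% and 4.07% of all genes tested. The median was 0.247 in sham and -0.0182 in MEST mice. Rpl41 (0.87 in sham, 0.10 in MEST) and Rpl18 (0.73 and 0.03) were examples, and their effects differed between treatments (adjusted p = 1.01e-05 and 5.53e-06). Of 72 oxidative phosphorylation genes 12 were common and higher, among them the cytochrome oxidase subunits Cox6b1 (0.30) and Cox7c (0.26) and the ATP synthase subunit Atp5h (0.26), and 1 was common and lower, Ndufa3 (-0.19), of complex I. The median was 0.247 in sham and -0.0751 in MEST mice. The effects differed between treatments in 41 of the 72 genes and in 42 of the 78 ribosomal ones, beside 18.5% of all genes tested. With MEST libraries alone the test called 7 of the ribosomal and 4 of the oxidative phosphorylation genes as higher, beside 792 of all 16596 genes tested. The smallest p-values for a difference were in Rps14, Rpl39, Sar1b, a GTPase of vesicle budding, and Atp5e. Atp5e, a subunit of ATP synthase, had means of 25.6 CPM in WT sham, 53.3 in KO sham, 59.9 in WT MEST and 38.4 in KO MEST mice, higher than WT in KO sham mice and lower than WT in KO MEST mice.

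Splicing factors and collagens showed the reverse arrangement and almost no common change. Of 43 splicing and nuclear RNA-binding genes 25 were lower in sham and 11 higher in MEST mice, and Luc7l2 (-0.15) was the only common one. Of 40 collagen chains 14 were lower in sham and 6 higher in MEST mice, and Col4a3 (-0.48) was the only common one. Of all genes tested 8.17% were lower in sham mice, 4.51% were higher in MEST mice and 7.32% were common. The 7 tumor immunomodulatory genes of the study were all lower in sham mice, but the study chose them on these sham samples, so that this count is not independent evidence of their direction. With limma none of the 7 was a common gene, and 1 was so at an unadjusted p under 0.05, while edgeR called 2 and DESeq2 called 1 as lower. Eno1, Muc1, Col5a1, Col11a1, Aim2 and Junb had log2 differences of -1.22, -1.14, -1.0, -0.96, -1.13 and -1.0 in sham mice and of 0.02, 0.14, 0.50, 0.63, 0.27 and 0.28 in MEST mice, where none passed the test. Il11, an interleukin, was the one with the same sign in both (-0.91 and -0.32, averaged adjusted p = 0.0601). The genotype effects differed between treatments in 4 of the 7, beside 18.5% of all genes tested. Of the windows of Eno1 59.0% are shared with copies. Of 20 core clock genes limma, edgeR and DESeq2 called none as common, and 2 were so at an unadjusted p under 0.05. Of 21 heat shock and chaperone genes only Stip1 (0.18), a co-chaperone, was common, beside 7.32% of all genes tested.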

How the data were processed

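RNA was read from 19 poly(A) libraries made with a stranded kit. Per the labels and the study's methods, the authors trimmed reads (Trimmomatic 0.39), removed ribosomal RNA, aligned to mm10 (HISAT2 2.2.1), counted per gene (featureCounts, Subread 2.0.3; strand setting not given in the sources used here) and deposited a normalized signal, the count divided by a DESeq2 1.36.0 size factor set separately in the WT and the KO table. The tables also hold the authors' own fold changes and p-values, which were not used. Each value was a whole multiple of the step of its library (100% within 0.01), and this step was taken as 1 read. For KO sham 5 the step was so close to 1 that the multiples alone do not settle whether they are reads. Of 24421 symbols 27 that had become dates were left out (at most 0.384% of a library). Each library was scaled to its own total.

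Genes with at least 0.2 CPM in 4 libraries were fitted as log2(CPM + 0.1) with limma 3.58.1 (R 4.3.3, trend and robust) on 4 group means. A gene was common when the averaged genotype contrast had an adjusted p under 0.05 and both treatments had the same sign. Alternatives used edgeR 4.0.16 and DESeq2 1.42.0 on recovered reads and other scalings, pseudocounts, filters, models and sets of libraries. The scripts were tested on simulated data.

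Coordinates and biotypes are from GENCODE (GRCm38), which held 98.4% of symbols. Shared windows are stretches of a gene's transcripts that also occur in another gene.

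Genes were named by these rules: the fatty acid binding protein family; the 12 largest increases and 12 largest decreases among common genes of at least 2 CPM whose genotypes did not overlap in either treatment; common genes within 10 Mb of Fabp7 or 1 Mb of Slfn8; up to 3 common members per direction of each of 23 gene lists; the study's 7 genes; and the 4 smallest p-values of the difference. Others are said to be chosen after their values were seen. The values of 1 tested family member are not reported here. The members and lists were chosen with earlier results of these data known. Replicates were taken as separate mice, as the study counts its sham ones. The ages in the labels do not settle this, since some replicates of a group share an age. The sources used here do not say how mice or libraries were batched. The size of a change near 0 CPM is understated by the pseudocount, and depth limited only genes of a few reads.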

Additional observations from a re-analysis of the deposited data

Results flagged for a closer look

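The genotype effect differed between treatments in 24 of the 94 genes named by the rules, beside 18.5% of all genes tested. The rules named 4 of the 24 for the smallest p-values of this difference. The log2 difference in MEST minus that in sham mice was -1.68 for Atp5e, -1.25 for Rps14, -1.15 for Rpl39, -0.91 for Sar1b, -0.83 for Fabp7, -0.77 for Rpl41, -0.69 for Rpl18, -0.62 for Cck, -0.56 for Cox6b1, -0.52 for Vip, -0.45 for Rpl17, -0.43 for Cox7c, -0.31 for Anapc16, -0.30 for Selk, -0.26 for Slco1a4 and -0.25 for Fam219aos. It was 1.60 for Col11a1, 1.51 for Col5a1, 1.40 for Aim2, 1.23 for Eno1, 0.88 for Crabp2, 0.86 for Fabp3, 0.77 for Mpc1 and 0.33 for Sox9. Each of these differences had a limma adjusted p under 0.05.

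Among the named genes 376 groups of 4 or 5 libraries were examined for a library far from the rest of its group, and 23 had one (6.12%), where chance gives about 1 in 20. KO sham 3 was that library in 8 of the 23. It stood at 11.8 CPM in Moxd1, 69.8 in Fam219aos, 82.9 in Bscl2, 58.3 in Fdps, 2620 in Camk2a, 55.2 in Vip, 70.7 in Ndufa3 and 60.2 in Sar1b. KO sham 4 stood at 7.17 CPM in AA465934 and 0.414 in Il11.

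Of the WT sham libraries, WT sham 4 stood at 31.0 CPM in Folh1 and 0.271 in Wfdc17, and WT sham 5 at 55.0 in Npy. Of the WT MEST libraries, WT MEST 1 stood at 100 CPM in Fabp5 and 26.4 in Gstz1, WT MEST 2 at 59.1 in Fabp3 and 147 in Atp5h, WT MEST 3 at 26.5 in Zfp36l2, and WT MEST 5 at 9.98 in Tubd1 and 11.4 in Col11a1. Of the KO MEST libraries, KO MEST 1 stood at 56.5 CPM in Sox2, KO MEST 2 at 135 in Fabp5 and KO MEST 5 at 11.4 in Gpr34.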

How the results depend on the processing

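Scaling by TMM or median of ratios, other pseudocounts, other filters, edgeR and thinning to 1 depth kept the counts of common genes within 1.5 times of 716 higher and 499 lower. Counts moved in these cases. With the additive model they were 376 and 224, with age as a covariate 0 and 1, with sham libraries alone 1381 and 1091 (427 and 231 shared with the common genes), and with MEST libraries alone 792 and 779 (198 and 150 shared). With age, limma gave 682 higher and 710 lower genes at an unadjusted p under 0.05, and no other tool was run with age. The 100 genes called in both treatments became 159 with DESeq2 (94 shared) and 1 with age. With the length trend removed 67.7% of common genes were higher against 58.9% before. Leaving out 1 library gave 501 to 790 higher, 326 to 569 lower, 44 to 111 called in both treatments and 2624 to 3515 with a difference. Without WT MEST 5 329 genes were lower, without KO MEST 2 326, and without these libraries 52 and 44 genes were called in both, with 46, 58, 61 and 64 without WT MEST 1, WT MEST 4, KO MEST 3 and KO MEST 5. Fabp7 kept its call in each setting, from -7.56 with DESeq2 to -3.78 with a pseudocount of 1 CPM, and from -6.39 to -6.23 without 1 library.

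Directions turned with age as a covariate in Fabp3 (0.13), S1pr5 (0.0041), Slfn8 (-0.068), Sox9 (0.017), Nr4a3 (0.16) and Ndufa3 (0.13). They turned with MEST libraries alone in Fabp3 (0.23), Eno1 (0.017), Muc1 (0.14), Col5a1 (0.50), Col11a1 (0.63), Aim2 (0.27), Junb (0.28), Rps14 (-0.30), Rpl39 (-0.56), Sar1b (-0.21) and Atp5e (-0.64), and with sham libraries alone in Fabp5 (-0.078) and Crabp2 (-0.20). Rpl39 was -0.013 with the length trend removed, -0.015 with the additive model and ranged from -0.012 (without KO sham 3) to 0.045 when 1 library was left out. The cause was not tested. Same-numbered WT and KO mice of a treatment did not deviate together (correlations of -0.0210 to 0.0901 in sham and -0.0498 to 0.00723 in MEST mice). No pairing of the genotypes by number was thus seen. KO sham 3 and KO MEST 3 had a correlation of 0.261. With the replicate block 614 higher, 413 lower, 87 called in both and 2913 differing genes were found.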
